A study of Heliconius melpomene cythera and Heliconius melpomene rosina with 32 samples.

Results

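Gene expression in the anterior hindwing at 50% of pupal development was compared between female and male Heliconius melpomene butterflies. The 8 libraries compared, of 32 in the series, were chosen by their labels for wing region, stage and sex. There were 4 females, individuals 1 and 3 of the subspecies cythera and 6 and 8 of rosina, and 4 males, individuals 2 and 4 of cythera and 5 and 7 of rosina. All were from captive populations kept at 25°C and fed on Passiflora biflora, and each library came from a separate individual. Cythera is the iridescent blue subspecies and rosina is not iridescent. For each animal a second library holds the forewing and the rest of the hindwing. The series also holds 70% libraries from other animals, which at the anterior hindwing are labelled as 2 females (10 and 12, both cythera), 2 cythera males (9 and 11) and 4 rosina males (13 to 16). The study removed 1 mislabelled rosina individual without giving its number or stage in the text, so labels at both stages are used here as deposited.

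In butterflies, females carry a Z and a W sex chromosome and males carry a pair of Z chromosomes. The anterior hindwing of Heliconius males bears androconia, patches of modified scales that release pheromones, and females lack these scales in the same position. In the study this region was separated from the rest of the wing because of its different scale type. Each library is bulk tissue, so fewer cells of a type and less RNA per cell cannot be told apart.

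The 8 libraries held 28681744 to 45559941 counts, and 17830 to 19440 loci had at least 1 count. The 10 loci with the most counts took 19.9% to 26.6% of the counts. In a multidimensional scaling plot, subspecies accounted for 87.3% of the spread along dimension 1 and sex for 54.6% of the spread along dimension 2. Male 4 lay apart along dimension 2, at 3.82, against -1.43 to -0.92 in the 4 females and -0.20 to 0.85 in the other 3 males, so results are also given without it where that changes them. The rows of the count table are loci assembled from reads (MSTRG numbers), of which some carry an annotated gene ID (HMEL). None of these IDs was matched to a gene name, so no role is given for them, and loci that share reads with similar copies or with overlapping transcripts are uncertain.

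Of 13250 loci tested with subspecies as a term, 32 differed between the sexes at a false discovery rate (FDR) under 0.05, or 0.242%. Of these, 19 (0.143%) were higher in females and 13 (0.0981%) were lower. The 19 higher in females were mostly unannotated loci close to 0 in males, whereas the 13 lower in females mostly had reads in both sexes. Among the higher loci 16 of 19 carried no annotated ID. Among the lower loci 4 of 13 carried none, near the share of 29.9% among all loci tested. The median log2 fold change (female over male) over all loci tested was -0.01. In 1 of the 32 the CPM (counts scaled to library size after TMM normalization) of the sexes overlapped, whereas over all loci tested 5.68% did not overlap, 2.84% being higher in females and 2.85% lower. At an unadjusted p under 0.05 there were 1100 loci (8.3%), 475 higher and 625 lower.

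**Figure D1:**
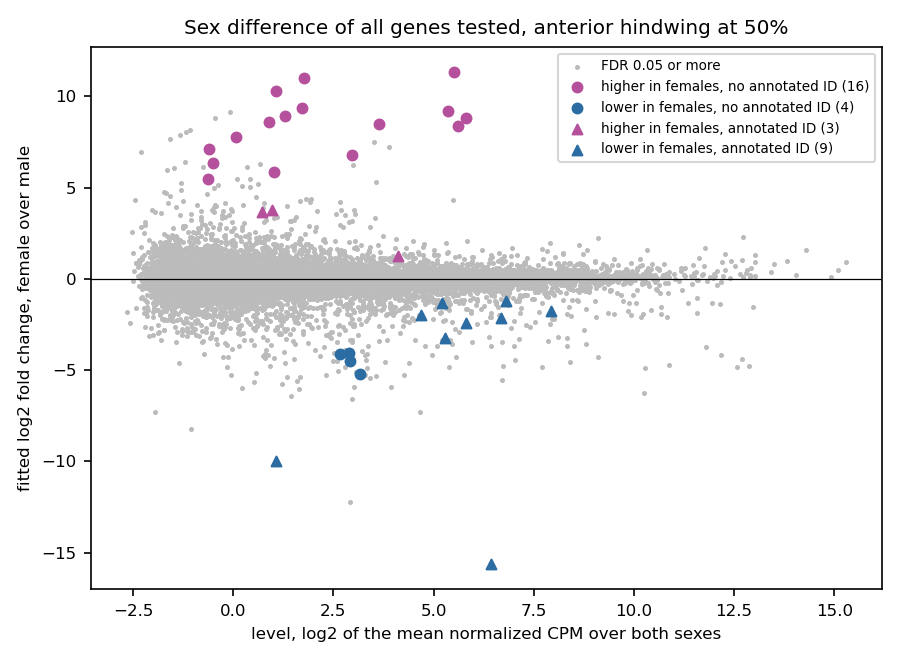
Fitted log2 fold change (female over male) of each of the 13250 loci tested against the log2 of its mean normalized CPM over both sexes; grey points have an FDR of 0.05 or more, circles are called loci with no annotated ID and triangles called loci with one. The 16 unannotated loci higher in females lie far above 0, while 7 of the 9 annotated loci lower in females lie near the grey points and 2 lie far below, those with no count in females, whose fitted values are not a bound.

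The number of loci called changed whichever animal was left out. Each such fit also had fewer animals, and the reason for the change was not tested. Leaving out each animal in turn left 5 loci without female 1 or male 7, 6 without male 5, 7 without female 8, 10 without female 6 and 11 without male 2 or female 3, but 42 without male 4. The 5 loci that passed in all 8 of these fits were MSTRG.20567, MSTRG.4824, MSTRG.4827 and MSTRG.18044, higher in females, and MSTRG.20855, lower. Each of the 32 had the same direction in both subspecies when these were fitted alone. For loci whose sexes did not overlap in these same 8 libraries this follows from the choice, so it is no further support.

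Among the loci higher in females, 4 unannotated loci had the most reads per library in females, on a scale not corrected for length. MSTRG.20286 had 107, 110, 95.7 and 135 CPM in females 1, 3, 6 and 8, against 0.534, 0.0587, 0.0662 and 0.303 CPM in males 2, 4, 5 and 7 (FDR = 0.00666). Each female was thus far above each male, with means of 112 ± 16.8 and 0.240 ± 0.226 CPM in females and males (SD, n = 4 each). MSTRG.20567, the locus with the smallest p, had 99.4, 94.3, 80.2 and 118 CPM in the females, against 0.448, 0.117, 0.298 and 0.303 CPM in the males, a difference of 336-fold (log2 fold change 8.35 ± 0.41, SE, FDR = 0.00143). MSTRG.4827 averaged 82.3 ± 13.8 CPM in the females (SD, n = 4), against 0 to 0.256 CPM in the 4 males (9.19 ± 0.60, SE, FDR = 0.00302). The females and the males of both loci were spread over narrow ranges beside the difference between them. MSTRG.4824 had 94.4, 91.2, 72.2 and 106 CPM in the females, while its counts in the males were 5 in male 2 and 0 in males 4, 5 and 7 (FDR = 0.00302). Those 5 male counts, against 13981 in the females, gave a ratio of mean CPM of 3409.

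The other unannotated loci had fewer reads in females. MSTRG.14712 had 17.5, 38.2, 19.3 and 23.8 CPM in females 1, 3, 6 and 8, and its only male counts were 11 in male 4 (FDR = 0.0411). MSTRG.25029 had 17.1, 12.3, 14.8 and 17.6 CPM in the females, against 0 to 0.235 CPM in the males, 113-fold higher (FDR = 0.0229). MSTRG.4832 averaged 4.01 ± 1.13 CPM in females and 0.0703 ± 0.0402 CPM in males (SD, n = 4 each, FDR = 0.0106), and in none of these 3 loci did the groups overlap. MSTRG.18044, at 6.93, 6.45, 5.12 and 7.57 CPM in the females, had 1 count in male 2 and 0 in the other males (FDR = 0.00336). The ratio was 970, with an exact 95% counting interval of 174 to 38368. MSTRG.25664, MSTRG.8593, MSTRG.8307 and MSTRG.5087 had the same pattern of 1 count in male 2, against 770, 571, 325 and 193 counts summed over the females, with ratios of 745 (133 to 29464), 552 (98.8 to 21859), 314 (56.0 to 12458) and 187 (33.1 to 7413). These intervals cover counting error only. MSTRG.23307 had 2 counts over the males and 210 over the females, a ratio of 102 (27.8 to 844).

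There were 2 loci with no count in any male. MSTRG.3117 had 176, 287, 245 and 276 counts in females 1, 3, 6 and 8, so that it was at least 80.9-fold higher in females when each male was set at 3 counts, the limit that a count of 0 allows (FDR = 0.0383). MSTRG.20289 had 174, 103, 132 and 243 counts in the females and was at least 50.1-fold higher (FDR = 0.0351). MSTRG.14139 had 36 to 63 counts in the females and 0 to 2 in the males (FDR = 0.0351).

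The 3 annotated loci higher in females were read in males as well. MSTRG.14005 (HMEL012616g1, HMEL012617g2 and HMEL031520g1 in 1 locus) had 20.9, 22.9, 23.2 and 29.1 CPM in females 1, 3, 6 and 8, against 8.26, 6.81, 13.7 and 12.2 CPM in males 2, 4, 5 and 7. It was 2.35-fold higher in females, without overlap, at log2 fold change 1.28 ± 0.17 (SE, FDR = 0.0430). MSTRG.13632 (HMEL009627g2) had 2.20 to 3.74 CPM in the females and 0.165 to 0.341 CPM in the males (3.66 ± 0.40, SE, FDR = 0.0308). MSTRG.11950 (HMEL030967g1) had 6.34 CPM in female 3 and 2.56 to 2.91 CPM in the other 3 females, against 0.110 to 0.499 CPM in the males (3.79 ± 0.48, SE, FDR = 0.0411). None of the 3 passed in each of the fits that left out 1 animal.

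**Figure D2:**
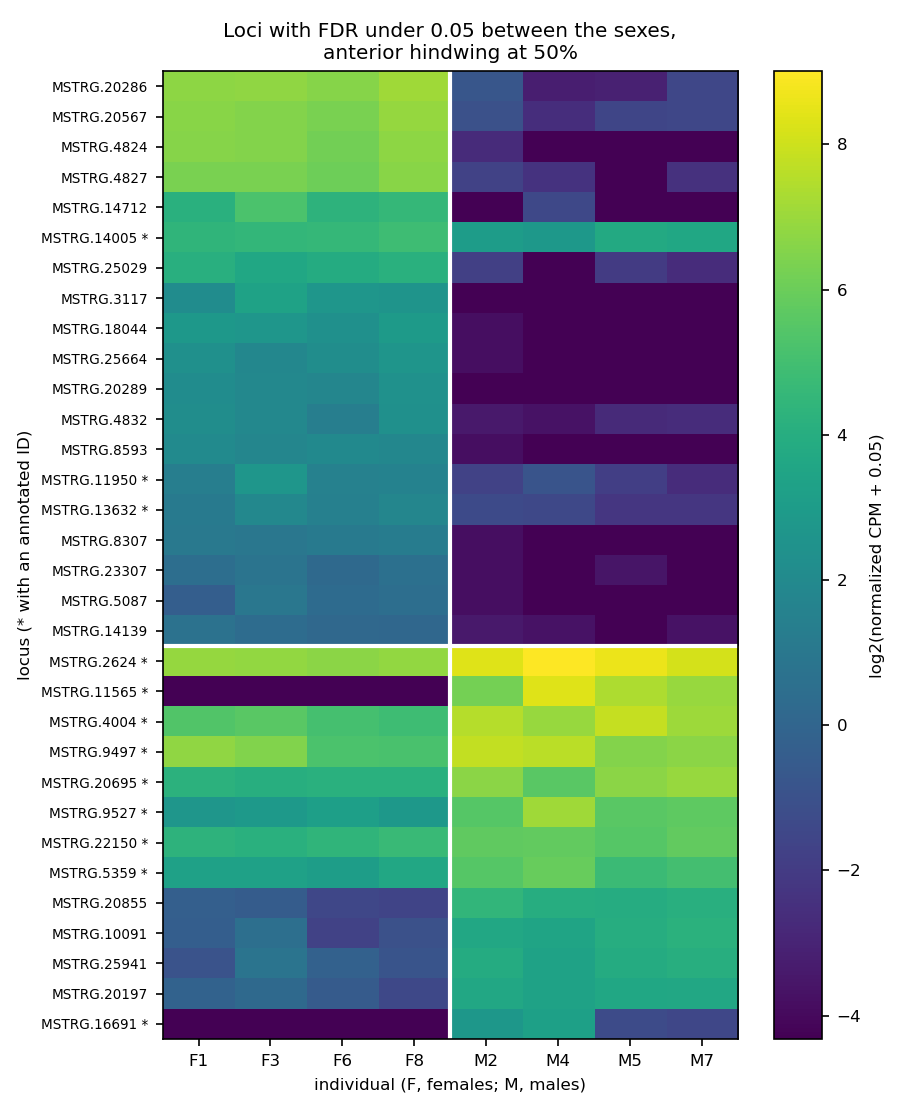
Level of the 32 called loci (down the page, those higher in females above the white line) in the 8 anterior hindwing libraries at 50%, females (F) left of males (M), as log2 of the normalized CPM + 0.05; asterisks mark loci with an annotated ID. The upper loci are dark in most males, except MSTRG.14005, and MSTRG.11565 and MSTRG.16691 are dark in the 4 females.

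Counting loci by a level rule, without a test, 26 loci had at least 10 counts in every female and at most 3 in every male, of 25096 loci with a count in any of the 8 libraries, and 5 had the reverse. None of the 26 had an annotated ID, 23 passed the filter on low counts and 9 were among the 32 called, all of them described above. Their summed level was 46.6, 50.4, 50.9 and 54.5 CPM in females 1, 3, 6 and 8, against 0.299, 0.0294, 0.298 and 0.248 CPM in males 2, 4, 5 and 7. The rule that chose these loci fixes this difference, in both subspecies. The count of such loci rose to 51 when male 2 was left out, and leaving out any other animal gave 27 to 34. These thresholds were chosen after the data had been seen.

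At 70%, 15 of the 26 loci again had at least 10 counts in both females and at most 3 in all 6 males, and 20 did so within cythera. In that stage 57 loci of the table met the rule over all 8 libraries and 159 met it within cythera. The summed level of the 26 was 38.4 and 37.8 CPM in females 10 and 12, against 0.194 and 0.547 CPM in cythera males 9 and 11 and 0.170 to 3.31 CPM in the males labelled rosina. The highest of these, male 16, had 132 counts, of which 97 came from MSTRG.24057. That locus was itself uneven at 50%, with 409 and 199 counts in rosina females 6 and 8 and 11 and 12 counts in cythera females 1 and 3, and had 0 counts in both 70% females.

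**Figure D3:**
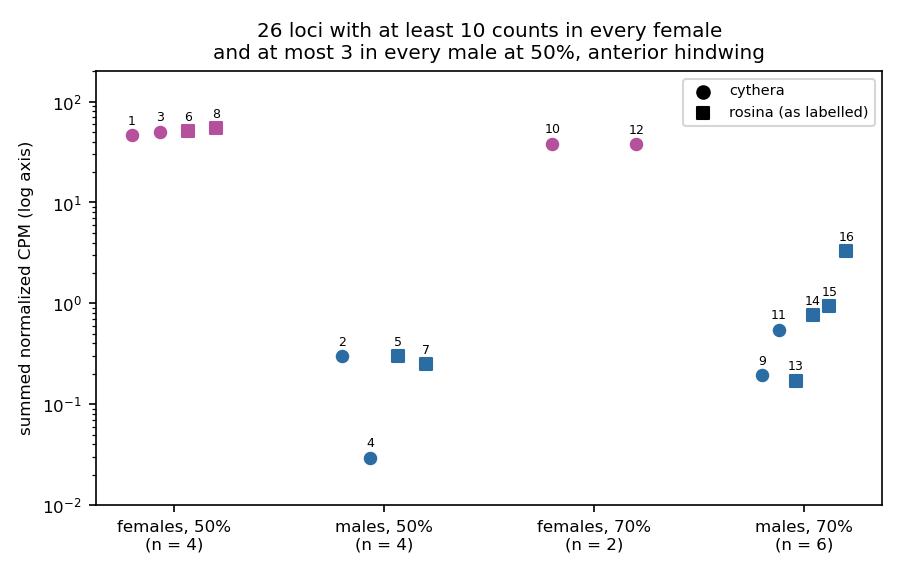
Summed normalized CPM (log axis) of the 26 loci with at least 10 counts in every female and at most 3 in every male at 50%, in each of the 16 anterior hindwing libraries; numbers are individuals, circles cythera and squares rosina as labelled. At 50% the loci were chosen for this difference. At 70% the 2 females lie at 38.4 and 37.8 CPM and the 6 males between 0.170 and 3.31 CPM.

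The loci called higher in females were also higher outside the anterior hindwing. In the forewing and posterior hindwing of the same 8 animals, 18 of the 19 were higher in females without overlap, where 2.49% of the 12779 loci tested there were. MSTRG.14005 was the exception, at 13.9 to 20.6 CPM in females and 8.14 to 16.8 CPM in males. The 19 were called in these same animals, and the libraries of an animal are not independent, so this wing region gives no separate support. In the cythera anterior hindwing at 70%, from other animals, 18 of the 19 were higher in the 2 females than in the 2 males, where 19.7% of 12967 loci were, and MSTRG.13632 overlapped, at 0.564 and 1.12 CPM in the females against 0.242 and 0.984 CPM in the males. MSTRG.20567, for example, had 115 and 101 CPM in females 10 and 12 and 0.0365 to 0.255 CPM in the 6 males at 70%. MSTRG.3117 kept its direction at a lower level, with 0.338 and 0.733 CPM in females 10 and 12 and 0 to 0.0638 CPM in those males. By the test itself, 13 loci were called in the forewing and posterior hindwing (0.102%), of which 11 were also called in the anterior hindwing, and 2 were called in cythera at 70% (0.0154%).

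Lower in females were 13 loci, 9 of them annotated, and 2 of the 9 had no count in any female. MSTRG.11565 (HMEL015921g1) had 0 counts in each of the 4 females, against 3485, 11216, 4998 and 4561 counts in males 2, 4, 5 and 7, or 74.4, 329, 165 and 125 CPM. With each female set at 3 counts it was at least 2134-fold lower in females (FDR = 0.0430). In the forewing and posterior hindwing of the same animals the females again had 0 counts and the males 68, 1065, 397 and 187. Male 4 was thus the highest male in both wing regions. At 70% the locus had 0 counts in both females and 0 to 17 in the 6 males.

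MSTRG.16691, which joins 6 annotated IDs of which the first is HMEL018109, also had 0 counts in the 4 females, against 307 and 327 counts in cythera males 2 and 4 and 11 and 11 in rosina males 5 and 7. By the mean of the 4 males it was at least 51.7-fold lower in females (FDR = 0.0406), and the 2 subspecies did not overlap among the males. Cythera males 2 and 4 made most of that mean, at 6.55 and 9.60 CPM. Rosina males 5 and 7 had 0.364 and 0.303 CPM, where a count of 0 allowed up to 0.0780 and 0.0647 CPM in rosina females 6 and 8. The locus passed in 0 of the 8 fits that left out 1 animal. With no subspecies term its FDR was 0.375. At 70% it had 6 and 12 counts in females 10 and 12, against 130 and 314 in cythera males 9 and 11 and 91 to 364 in the males labelled rosina. The sexes were therefore apart at that stage as well.

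The other annotated loci lower in females were read in every library and differed by 2.24-fold to 9.68-fold. MSTRG.2624 (HMEL014362g2), with the most reads of them, had 120, 115, 102 and 115 CPM in females 1, 3, 6 and 8, against 330, 515, 386 and 285 CPM in males 2, 4, 5 and 7. Its log2 fold change was -1.74 ± 0.19 (SE, FDR = 0.0308), and the females were closely grouped while male 4 was highest. MSTRG.4004 (HMEL003479g2) had 28.7 to 48.1 CPM in the females and 124 to 225 CPM in the males (-2.14 ± 0.26, SE, FDR = 0.0382). MSTRG.20695 (HMEL001028) had 18.8, 16.4, 17.8 and 17.3 CPM in the females, against 104, 47.6, 104 and 122 CPM in the males (-2.39 ± 0.27, SE, FDR = 0.0318). Here male 4 was the lowest male, though still above each female. MSTRG.9527 (HMEL007020g1) had 6.25 to 9.00 CPM in the females, against 45.1, 136, 48.2 and 52.1 CPM in males 2, 4, 5 and 7 (-3.22 ± 0.41, SE, FDR = 0.0411). MSTRG.22150 (HMEL034605g1) averaged 21.1 ± 3.51 CPM in females and 52.7 ± 5.65 CPM in males, and MSTRG.5359 (HMEL036689g1) averaged 10.2 ± 1.83 CPM in females and 41.4 ± 15.0 CPM in males (SD, n = 4 each), both without overlap (FDR = 0.0351 and 0.0430).

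MSTRG.9497 (HMEL014623g1) was the called locus whose groups overlapped. It had 112 and 90.5 CPM in cythera females 1 and 3, against 222 and 199 CPM in cythera males 2 and 4. In rosina it had 36.9 and 36.5 CPM in females 6 and 8, against 92.4 and 105 CPM in males 5 and 7. Within each subspecies the females were lower, and the overlap lay between the cythera females and the rosina males (-1.24 ± 0.14, SE, FDR = 0.0318).

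The loci lower in females differed in how they stood in other libraries. In the forewing and posterior hindwing 8 of the 13 were lower in females without overlap, where 2.34% of the loci tested there were. These libraries came from the same animals, so they are not independent. In cythera at 70% 3 of the 13 were lower in females without overlap, a share near the 18.7% of all loci tested there. At 70% 4 of the 13 were higher in the cythera females without overlap, where 19.7% of all loci tested there were, and 6 overlapped. Among the 4, MSTRG.20855, MSTRG.10091 and MSTRG.25941 were high in female 10 only. Female 12 had 1.64, 1.75 and 2.48 CPM, against 1.45, 1.40 and 2.03 CPM in cythera male 9. The 3 that were lower in the cythera females at 70% were MSTRG.16691, MSTRG.22150 and MSTRG.20695. For MSTRG.22150, male 15, labelled rosina, was at 16.3 CPM, just below female 12 at 16.4 CPM. The other males labelled rosina were at 17.5 to 23.9 CPM. MSTRG.20695 had 9.96 and 5.03 CPM in females 10 and 12, against 44.3 and 45.2 CPM in cythera males 9 and 11. In the males labelled rosina it had 42.4 to 92.5 CPM, except male 16, at 9.60 CPM, below female 10. In the forewing and posterior hindwing at 50% it overlapped, at 20.2 to 47.7 CPM in females and 28.2 to 58.5 CPM in males. MSTRG.4004 was the other way round at 70%, with 14.8 and 32.1 CPM in females 10 and 12, against 5.23 and 1.46 CPM in males 9 and 11.

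The 4 unannotated loci lower in females formed a group of their own. MSTRG.20855, which passed in each fit that left out 1 animal, had 0.759, 0.677, 0.312 and 0.280 CPM in females 1, 3, 6 and 8, against 15.1 to 21.7 CPM in males 2, 4, 5 and 7 (-5.20 ± 0.30, SE, FDR = 0.00225). MSTRG.10091, MSTRG.20197 and MSTRG.25941 had 0.260 to 1.71 CPM in the females and 10.1 to 18.4 CPM in the males, 16.0-fold to 20.3-fold lower in females (FDR = 0.0351, 0.0107 and 0.0351). In the forewing and posterior hindwing of the same animals MSTRG.20855 had 0.271 to 0.713 CPM in females and 14.2 to 18.6 CPM in males, so the sexes were apart in both wing regions.

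At 70% these 4 loci did not follow the labelled sex. MSTRG.20855 had 842 counts in cythera female 10 and 47 in cythera female 12. Among the 70% males it had 636 counts in male 14, labelled rosina, and 0 to 53 in the other 5. The high libraries over both stages were thus the 4 males at 50%, female 10 and male 14. Over the 16 anterior hindwing libraries 8 of the 30720 loci of the table had each of these 6, at 10 counts or more, above each of the other 10. The 8 include the 4 loci, and the split was taken from the values of MSTRG.20855. The strongest besides the 4 were MSTRG.274 and MSTRG.20857. MSTRG.4518 (lowest high library 13.8 CPM, highest other library 12.9 CPM) and MSTRG.14561 (28.5 and 27.7 CPM) were barely apart. MSTRG.274 had 1 to 12 counts in the females and 26 to 106 in the males at 50%, and at 70% it had 59 counts in female 10 and 43 in male 14, against 0 to 10 in the others. Pearson's r with MSTRG.20855 across these 16 libraries was 0.987 for MSTRG.20197, 0.978 for MSTRG.10091, 0.964 for MSTRG.25941, 0.942 for MSTRG.20857 and 0.939 for MSTRG.274, as a description, since the libraries share sex, subspecies and stage. The loci higher in females went by the labels in the same libraries: MSTRG.20286 had 126 CPM in female 10 and 0.0319 CPM in male 14.

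MSTRG.11565 stands in a run of 19 loci with neighbouring numbers, MSTRG.11557 to MSTRG.11575, whose annotated IDs, apart from HMEL030879g1 at MSTRG.11563, also follow in sequence from HMEL015914. The run was chosen around MSTRG.11565 after its values were seen, and genome positions were not used here. Of the 19 loci 9 passed the filter on low counts, and 6 of these were lower in females without overlap in the anterior hindwing at 50%, where 2.85% of all loci tested were. The 6 include MSTRG.11565 itself, so that share is in part set by the choice of the run. Of the run MSTRG.11565 was called. MSTRG.11567 (HMEL015924) had 9, 0, 10 and 15 counts in females 1, 3, 6 and 8, against 374, 5721, 553 and 317 counts in males 2, 4, 5 and 7 (FDR = 0.174). MSTRG.11566 (HMEL015922g1) had 0 to 13 counts in the females and 39, 299, 90 and 69 in the males (FDR = 0.238). Male 4 was the highest of the males in both.

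Male 4 was also far above the rest at the end of the run. MSTRG.11573 (HMEL015930g1, HMEL015930g2 and HMEL015931g1 in 1 locus) had 27.5, 29.2, 29.9 and 33.7 CPM in females 1, 3, 6 and 8, against 48.9, 532, 33.8 and 60.1 CPM in males 2, 4, 5 and 7. MSTRG.11574 (HMEL015931g2) had 0.178 to 1.69 CPM in the females, against 2.16, 147, 1.75 and 11.0 CPM in the males. In both, male 4 stood apart and male 5 was close to the females (FDR = 0.618 and 0.60).

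The first locus of the run behaved otherwise. MSTRG.11557 (HMEL015914) had 216, 6, 4 and 30 counts in females 1, 3, 6 and 8, against 30, 4, 24 and 10 counts in males 2, 4, 5 and 7 (FDR = 0.851). The sexes overlapped at 50%, and female 1 was highest. At 70% it had 4 and 12 counts in females 10 and 12, against 2549 and 1167 counts in cythera males 9 and 11 and 800 to 7975 in the males labelled rosina. MSTRG.11565 at 50% and MSTRG.11557 at 70% were thus read in males, each at low counts in the other stage's males.

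**Figure D4:**
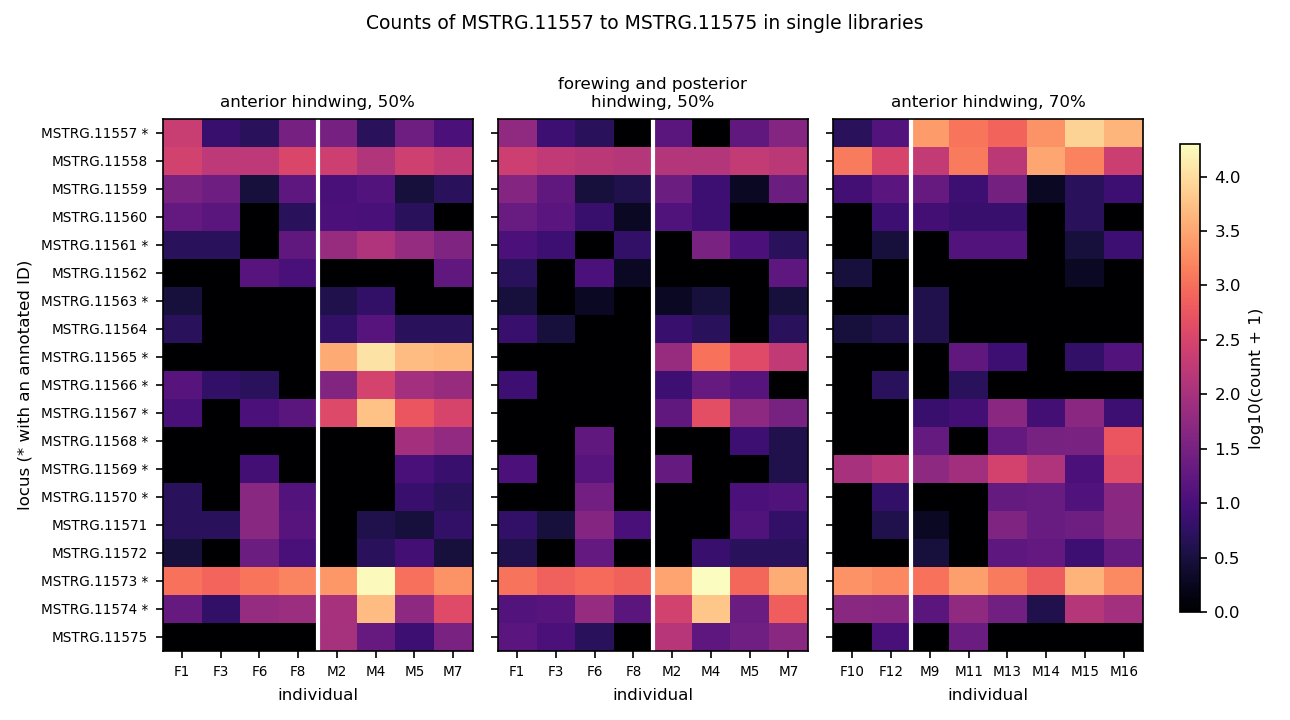
Counts, as log10 of count + 1, of the 19 loci MSTRG.11557 to MSTRG.11575 (down the page) in the anterior hindwing at 50%, the forewing and posterior hindwing of the same animals, and the anterior hindwing at 70%, with females (F) left of the white line and males (M) right of it. MSTRG.11565 is bright in the 4 males at 50% and black in the 4 females, and MSTRG.11557 is bright in the 6 males at 70%.

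Whether the sex difference was particular to the androconial region was tested by its change between the wing regions of the same 8 animals, with individual as a block. Of 16025 loci 8 passed (0.0499%), and in all 8 the female over male difference was lower in the anterior hindwing. The 32 loci called between the sexes were not among them. Their smallest FDR was 0.119, for MSTRG.5359. At an unadjusted p under 0.05 there were 11 of the 32, where 929 of all 16025 loci were. The 32 were chosen on anterior hindwing values that also enter this test, so a higher share is in part set by that choice. MSTRG.11565, MSTRG.16691 and MSTRG.3117, with no count in a sex in either wing region, could not be fitted. With no block 0 loci passed (152 at an unadjusted p under 0.05).

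The 8 loci were higher in the anterior hindwing than in the rest of the wing of males, or, for MSTRG.22385, lower there in females. MSTRG.22804 (HMEL006583g1) had an anterior hindwing over forewing and posterior hindwing log2 ratio of -0.55, 0.18, -0.20 and -0.91 in females 1, 3, 6 and 8, against 3.42, 4.02, 3.55 and 3.27 in males 2, 4, 5 and 7. The difference between the sexes in this ratio was -3.80 ± 0.26 (SE, FDR = 0.000426), and each male was above each female, though the ratio of male 4, with 0 counts in the forewing and posterior hindwing, was set by the prior count. The level itself varied, with 1.36 to 7.44 CPM in females, against 357, 0.852, 346 and 106 CPM in males 2, 4, 5 and 7, so that male 4 lay below each female and the sexes overlapped. At 70% it had 0 to 1.26 CPM in all 8 libraries.

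MSTRG.11975 (HMEL013823g1 and HMEL030976g1) had log2 ratios of -0.23 ± 0.11 in females and 1.84 ± 0.28 in males (SD, n = 4 each), a difference of -2.08 ± 0.15 (SE, FDR = 0.000426). In the anterior hindwing it had 9.36, 6.06, 8.84 and 19.1 CPM in females, against 71.5, 24.8, 162 and 97.9 CPM in males, without overlap (FDR of the sex difference = 0.0841, and 0.0259 without male 4). MSTRG.11589 (HMEL015940g1) had log2 ratios of -0.21 ± 0.12 in females and 0.98 ± 0.16 in males (SD, n = 4 each), a difference of -1.19 ± 0.11 (SE, FDR = 0.00482). Its levels in the anterior hindwing overlapped, at 36.8 to 64.7 CPM in females and 17.3 to 99.5 CPM in males (FDR of the sex difference = 0.835). The fitted log2 fold change was -0.50 there and 0.72 in the forewing and posterior hindwing, where it was not called. These 3 loci passed in each of the 8 fits that left out 1 animal.

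The other 5 passed in 2 or 3 of those fits. MSTRG.9484 (HMEL005276g1), with the most reads of the 8, had 296, 294, 352 and 311 CPM in the anterior hindwing of females, against 1028, 669, 560 and 646 CPM in that of males, and in the forewing and posterior hindwing 283 to 393 CPM in females and 258 to 444 CPM in males. The difference of its ratio was -1.16 ± 0.15 (SE, FDR = 0.0370). MSTRG.16526 (-0.99 ± 0.12) and MSTRG.22746 (-1.21 ± 0.15) had ratios near 0 in females and close to 1 on the log2 scale in males. In the anterior hindwing itself the sexes overlapped at both (FDR of the sex difference = 0.993 and 0.920). Their fitted log2 fold changes were 0.04 and -0.28 there, and 0.99 and 0.94 in the forewing and posterior hindwing, where neither was called. MSTRG.1719 (-4.31 ± 0.57) had 0.151 to 0.780 CPM in females and 5.25 to 72.7 CPM in males in the anterior hindwing. In MSTRG.22385 (-3.53 ± 0.43) the ratio was -2.51 ± 0.41 in females and 0.73 ± 0.55 in males (SD, n = 4 each), but male 4 had 0 counts in both regions.

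**Figure D5:**
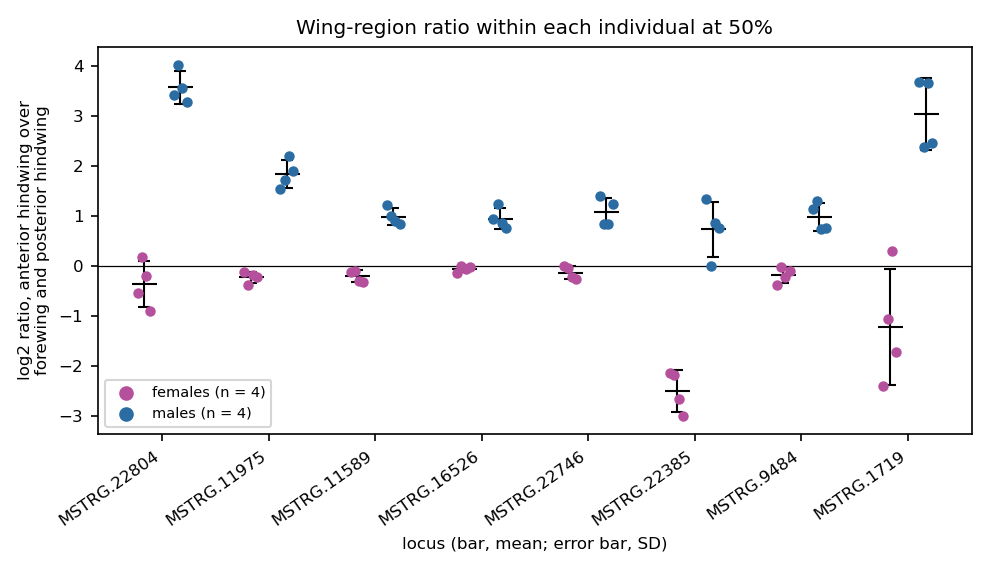
Log2 ratio of the anterior hindwing over the forewing and posterior hindwing within each animal at 50%, computed on the log2 CPM scale after adding a prior count of 2, for the 8 loci whose sex difference changed between wing regions; points are animals, 4 females on the left and 4 males on the right of each locus, with mean and SD. No male overlaps a female in any of the 8, and MSTRG.22804 has a mean of -0.37 in females and 3.57 in males. The loci were chosen by a test of this same difference, so the lack of overlap is no further support. The points of male 4 at MSTRG.22804 and MSTRG.22385 were set by the prior count.

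The number of loci passing this test rose to 51 without male 4, 49 of them more negative in the anterior hindwing. It was 3 without male 2 or female 3, 4 without female 1 or 6, 6 without male 7 or female 8 and 8 without male 5.

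Between the subspecies the sex difference changed in 1 of the 13250 loci (0.00755%). MSTRG.7154, with no annotated ID, had 5 and 4 counts in cythera females and 6 and 3 in cythera males. In rosina it had 18 and 29 counts in females, against 2128 and 2997 counts in males. High counts were thus found in rosina males, and the female over male difference was higher in cythera than in rosina by 7.39 on the log2 scale (FDR = 0.0258). At 70% it had 0.175 and 0.789 CPM in the 2 females and 0.145 to 1.71 CPM in the 2 cythera males, against 0.383 to 21.6 CPM in the 4 males labelled rosina. Of the 32 loci called between the sexes, none passed (smallest FDR 0.979). At an unadjusted p under 0.05 there were 3 of them, where 579 of the 13250 loci were. Leaving out 1 animal gave 6 loci without male 2 and 0 without any 1 of the other 7 (461 to 774 at an unadjusted p under 0.05).

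Between the stages, in the cythera anterior hindwing with 2 animals of each sex at each stage, the sex difference changed in 0 of 15838 loci by edgeR (smallest FDR 0.271). There were 894 loci at an unadjusted p under 0.05 and 221 called by DESeq2. Without male 2, 211 loci passed in edgeR, but male 4 is then the single cythera male at 50% and is assumed to vary like the other groups.

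The table names by hand the members of 4 gene families that take part in chemical sensing and in the handling of small molecules, and these were examined across the sexes. Gustatory receptors (HmGr) detect taste compounds and ionotropic receptors (HmIR) detect odours, acids, temperature or humidity. Glutathione transferases (HmelGST) conjugate glutathione to reactive compounds, and UDP-glycosyltransferases (HmelUGT) attach sugars to small lipophilic molecules. The filter on low counts kept 21 of 33 GST, 17 of 51 UGT, 3 of 73 Gr and 5 of 31 IR rows. None was called by edgeR, where 0.242% of all loci were. At an unadjusted p under 0.05 there were 1 GST higher in females, and 3 UGT and 1 IR lower, where 8.3% of all loci passed that threshold. DESeq2 called those 3 UGT, where it called 2.77% of all loci.

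Their median log2 fold changes were 0.17 for GST, 0.13 for UGT, 0.65 for Gr and 0.27 for IR, beside -0.01 for all loci. HmelUGT42B3 (MSTRG.18461) had 27.2, 13.7, 15.7 and 19.6 CPM in females 1, 3, 6 and 8, against 37.3, 50.3, 29.5 and 37.4 CPM in males 2, 4, 5 and 7 (-1.01 ± 0.24, SE, FDR = 0.302 by edgeR and 0.0157 by DESeq2). HmelUGT44A4 (MSTRG.18465) had 57.2 to 65.6 CPM in the females, against 94.1, 273, 102 and 205 CPM in the males (-1.44 ± 0.36, SE, FDR = 0.332 by edgeR and 0.0115 by DESeq2). In both the groups did not overlap and male 4 was highest. HmelUGT40X1 (MSTRG.10043) had 0 to 1.85 CPM in the females and 2.22 to 6.67 CPM in the males (FDR = 0.551 by edgeR and 0.0459 by DESeq2). HmIR25a_1 (MSTRG.20800), whose counterpart in Drosophila is a co-receptor of other ionotropic receptors, had the most reads of the IR rows tested, at 361 to 848 CPM in females and 677 to 1346 CPM in males, which overlapped (FDR = 0.60). HmelGSTz2 (MSTRG.12769) had 17.7 to 46.6 CPM in females and 6.49 to 20.3 CPM in males, which also overlapped (FDR = 0.503).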

How the data were processed

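Libraries were made by the study from total RNA with a stranded mRNA kit (TruSeq). After trimming and alignment to the reference genome of the species, the authors deposited raw counts, as whole numbers per locus. The submitters' processing notes name Trimmomatic 0.38, HISAT2 2.1.0, SAMtools 1.9, StringTie 1.3.5 and edgeR. The counting step and the genome build are not given in the sources used here. None of the row IDs matched the RefSeq table of ASM5695672v1 (15508 genes), so loci are given by ID.

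Tests were run in edgeR 4.0.16 (R 4.3.3, limma 3.58.1) and, as an alternative, in DESeq2 1.42.0. Plots used matplotlib 3.10.9 under Python 3.11.15. Loci were filtered with filterByExpr (minimum count 10) and scaled by TMM. The quasi-likelihood F-test in its earlier form, which the study used, was run without robust moderation, with subspecies as a term, and tested on simulated data. P-values were adjusted by Benjamini-Hochberg across the loci of each test (FDR). Log2 fold changes are female over male, standard errors come from the F statistic, and wing-region ratios used a prior count of 2. Individual was a block for the wing-region test, since the labels give both libraries of a number the same animal. Their deviations from group means correlated at 0.678 to 0.799 (median 0.737, 8 pairs). Replicates of one group differed by far more than counting error. Intervals and the floor of 3 counts per library cover counting error only.

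The loci named are, among called loci without overlap, the 10 higher and 10 lower in females with the smallest p, then in each direction the 4 with the highest mean CPM and the 4 annotated loci with the smallest p, the 3 loci with the smallest p of each interaction that passed, hand-named genes that passed, and MSTRG.11557. MSTRG.9497, MSTRG.24057, MSTRG.274, MSTRG.20857, MSTRG.4518, MSTRG.14561, the run of neighbouring loci, the 5 further loci of the wing-region test and the family members were named after their values were seen. The comparison, its lists and the rule were chosen with earlier results of these data known. Alternatives covered the test, scaling, filter, subspecies term, samples and each animal left out.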

Additional observations from a re-analysis of the deposited data

Results flagged for a closer look

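In 79 groups of 4 animals at 50%, each a sex with a named locus, the total counts or a multidimensional scaling dimension, the highest or lowest value stood apart from the other 3 in 6. Chance gives about 4. The 6 were all loci, so by this rule male 4 was not flagged on dimension 2. Female 3 was high for MSTRG.11950, at 6.34 CPM, and female 1 for MSTRG.11557, at 5.47 CPM. Among males, male 4 was high for MSTRG.9527, at 136 CPM, and for MSTRG.14712, at 0.323 CPM, male 2 was high for MSTRG.4824, at 0.107 CPM, and male 5 was low for MSTRG.22150, at 44.3 CPM.

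The sex difference changed between the wing regions, by the interaction test, at MSTRG.22804 (-3.80 on the log2 scale, anterior hindwing less the rest of the wing), MSTRG.11975 (-2.08), MSTRG.11589 (-1.19), MSTRG.9484 (-1.16), MSTRG.22746 (-1.21), MSTRG.16526 (-0.99), MSTRG.1719 (-4.31) and MSTRG.22385 (-3.53). Between the subspecies it changed at MSTRG.7154 (7.39, cythera less rosina).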

How the results depend on the processing

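The 32 loci called between the sexes compare with 31 under robust dispersions, 32 under RLE size factors or with no subspecies term, 29 with no filter, 60 (37 higher, 23 lower) in the newer quasi-likelihood fit, 73 (40 higher, 33 lower) with all 16 anterior hindwing libraries in the fit, 367 (164 higher, 203 lower) by DESeq2, 2 (both lower) where every library had at least 10 counts, a filter that drops loci near 0 in a sex, 0 in cythera alone (946 at an unadjusted p under 0.05) and 10 in rosina alone. The 32 were all called by DESeq2, and 31 of them by the newer fit. Leaving out 1 animal gave 5 to 42 loci. Over 505 values of named loci under these alternatives, 305 kept direction and call, 190 lost the call, 7 gained it and 3 changed sign, all of them of loci not called. These were MSTRG.11589, at 0.18 in cythera alone, and MSTRG.11557, at -0.49 in rosina alone and -0.61 without female 1 (-0.61 to 1.98 with 1 animal left out), and the cause was not tested.

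For the change between subspecies, DESeq2 gave 90 loci, no filter 7, and leaving out 1 animal 0 to 6, against 1. For the change between wing regions, DESeq2 gave 112 loci, 92 of them more negative in the anterior hindwing, the fit with no replicate block gave 0, and leaving out 1 animal gave 3 to 51, against 8. For the change between stages, DESeq2 gave 221 loci, and leaving out 1 animal 0 to 211, against 0. In the subspecies and stage fits a group is then 1 animal, assumed to vary like the others. In the forewing and posterior hindwing, DESeq2 gave 276 loci and leaving out 1 animal 5 to 14, against 13. DESeq2 called 3 hand-named genes, against 0.

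Of loci read in one sex, requiring 0 counts in the other gave 10 in females and 5 in males, requiring at least 20 counts gave 15 and 3, and leaving out 1 animal gave 27 to 51 and 5 to 15, against 26 and 5. For males, that count was 15 without male 4, 10 without male 5 and 12 without female 6 or 8. These settings, and those for the forewing and posterior hindwing and the hand-named genes, were chosen after seeing the data. The sexes shared no individual, so the sex comparison itself has no pairing. A count of 0 allowed up to 0.0640 to 0.107 CPM in these 8 libraries.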

Other observations

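Of the 42 loci called between the sexes without male 4, 25 were among the 32. The others included MSTRG.24424 (HMEL015031g1, -4.60 on the log2 scale, female over male, FDR = 0.00624 without male 4 and 0.174 with it), MSTRG.15432 (HMEL018019g1, -2.02, FDR = 0.00439 and 0.327), MSTRG.23081 (HMEL015729g1, -3.40, FDR = 0.00661 and 0.0955) and MSTRG.22804 (-6.11, FDR = 0.0198 and 0.400), all lower in females, and the unannotated MSTRG.1448 (4.32, FDR = 0.0139 and 0.0648) and MSTRG.277 (4.74, FDR = 0.0446 and 0.0802), both higher. These loci were chosen after their values were seen.

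Besides MSTRG.11565 and MSTRG.16691, 3 loci had at least 10 counts in every male and 0 in every female of the anterior hindwing at 50%. MSTRG.16754 had 454, 37, 640 and 1048 counts in males 2, 4, 5 and 7 (FDR = 0.149), and 0 counts in all 8 libraries at 70%. MSTRG.587 had 36, 20, 43 and 39 counts in those males (FDR = 0.109), and at 70% it had 0 and 5 counts in females 10 and 12, against 0 to 7 in the 6 males. MSTRG.24888 had 10 to 17 counts in the males and did not pass the filter on low counts. At 70% MSTRG.24888 had 0 counts in both females, against 8 to 23 in the 6 males.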
